A study of Homo sapiens with 2 samples.

Results

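The S9.6 peaks of human chromosome 1 were described by arm and by 5 Mb window, relative to the density of protein-coding genes. Members were all peaks that the deposited list places on chromosome 1, outside the interval from 629072 to 634932, which was left out by the rule that defines the set. This left 2958 of 2959 peaks on the chromosome, out of 47810 in the whole list. The arms were divided at 123 Mb, near the centromere, which put 1421 peaks in the short (p) arm and 1537 in the long (q) arm by the position of the peak's middle. The last peak before this limit ended at 122958444 and the first after it began at 123101093.

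The peaks came from A549, an established line of human lung cancer cells, of wild-type genotype and with no treatment named in the labels. CUT&Tag, in which a bound antibody brings a transposase that cuts and tags nearby DNA, was run with S9.6, an antibody raised against RNA-DNA hybrids, in 1 library. A second library made with non-specific IgG was not analysed here. The series title concerns YTHDF1, a reader of methylated RNA, at R-loops and innate immunity, and no YTHDF1 perturbation enters the data used. With 1 library there was no replicate and no test between conditions. All intervals are 95% intervals that cover counting error only, and neighbouring peaks or genes are not independent samples.

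R-loops form when a nascent RNA pairs with its DNA template and leaves the other strand unpaired. They are known to be frequent near the starts of active genes with CpG islands, at the ends of some genes, and at genes that are transcribed at high rates or lie in repeats, such as rRNA and tRNA genes. Chromosome 1 is the largest human chromosome. Its long arm carries, next to the centromere, a large block of satellite heterochromatin, and beyond it regions rich in duplicated genes, in the epidermal differentiation complex and in olfactory receptor genes.

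For each peak the deposited list gives a maximum coverage, the highest number of fragments stacked at 1 position, and a total signal summed over its bases. Coverage was low: the median maximum was 2 in both arms. Sites below the authors' calling threshold, whose value is not given in the sources used here, cannot be told apart from sites without signal. A boundary peak of a gene has at least 1 base within 1000 bp of either end of the gene's span, and the background is the share over chromosomes 1 to 22 and X.

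The promoters below show what the highest gene-boundary peaks of each arm lie over, beside a pair of promoters from families that had few peaks. They are 300 bases of RefSeq sequence (GRCh38.p14), from 250 bases before to 50 bases from the listed start, written 5′ to 3′ on the gene's strand. Capitals mark runs of at least 4 G or 4 C. In the p arm, SRGAP2C (chr1:121184725-121185024, plus strand) is a partial copy of SRGAP2, RBM15 (chr1:110339127-110339426, plus strand) encodes an RNA-binding protein that helps direct the m6A writer complex, and CLIC4 (chr1:24745197-24745496, plus strand) encodes a chloride channel family protein.
SRGAP2C: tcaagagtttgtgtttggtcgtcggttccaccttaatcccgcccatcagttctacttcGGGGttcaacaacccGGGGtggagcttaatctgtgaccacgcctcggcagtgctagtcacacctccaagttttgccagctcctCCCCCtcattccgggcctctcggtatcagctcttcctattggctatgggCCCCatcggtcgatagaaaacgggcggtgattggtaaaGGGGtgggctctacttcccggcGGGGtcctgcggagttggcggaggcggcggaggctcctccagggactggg
RBM15: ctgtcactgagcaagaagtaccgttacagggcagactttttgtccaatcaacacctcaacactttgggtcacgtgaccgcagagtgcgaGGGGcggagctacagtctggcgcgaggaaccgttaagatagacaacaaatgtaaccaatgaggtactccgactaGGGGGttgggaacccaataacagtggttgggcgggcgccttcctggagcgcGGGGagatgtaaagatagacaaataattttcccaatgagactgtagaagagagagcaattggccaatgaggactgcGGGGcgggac
CLIC4: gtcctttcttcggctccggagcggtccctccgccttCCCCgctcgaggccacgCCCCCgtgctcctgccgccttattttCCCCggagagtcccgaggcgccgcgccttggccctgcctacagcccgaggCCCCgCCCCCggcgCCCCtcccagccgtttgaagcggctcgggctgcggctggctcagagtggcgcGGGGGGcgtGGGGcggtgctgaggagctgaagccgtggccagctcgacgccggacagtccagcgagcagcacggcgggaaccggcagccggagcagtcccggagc
In the q arm, SRGAP2 (chr1:206203291-206203590, plus strand) encodes a GTPase-activating protein of cell migration and neuronal maturation, SRGAP2B (chr1:145095331-145095630, minus strand) is another partial copy of it, ZNF687 (chr1:151281272-151281571, plus strand) encodes a zinc finger protein, and CKS1B (chr1:154974431-154974730, plus strand) encodes a subunit of cyclin-dependent kinases.
SRGAP2: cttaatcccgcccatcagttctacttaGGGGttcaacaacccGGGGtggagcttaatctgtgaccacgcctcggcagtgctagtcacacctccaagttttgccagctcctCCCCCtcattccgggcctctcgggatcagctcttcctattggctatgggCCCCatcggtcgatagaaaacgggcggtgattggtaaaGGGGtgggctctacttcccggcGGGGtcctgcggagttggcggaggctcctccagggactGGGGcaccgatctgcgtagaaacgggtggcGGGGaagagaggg
SRGAP2B: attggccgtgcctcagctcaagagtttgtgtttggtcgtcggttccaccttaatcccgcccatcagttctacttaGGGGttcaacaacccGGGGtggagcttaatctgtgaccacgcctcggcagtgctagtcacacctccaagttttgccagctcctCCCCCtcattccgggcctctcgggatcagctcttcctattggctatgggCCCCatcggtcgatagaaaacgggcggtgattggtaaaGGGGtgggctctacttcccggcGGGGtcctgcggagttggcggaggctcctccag
ZNF687: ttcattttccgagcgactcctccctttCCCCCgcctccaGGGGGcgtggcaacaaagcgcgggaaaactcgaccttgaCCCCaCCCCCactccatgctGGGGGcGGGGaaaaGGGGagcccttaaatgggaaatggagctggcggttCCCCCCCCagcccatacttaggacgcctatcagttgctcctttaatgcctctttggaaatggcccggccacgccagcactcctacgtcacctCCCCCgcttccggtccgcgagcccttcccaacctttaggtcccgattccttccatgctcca
CKS1B: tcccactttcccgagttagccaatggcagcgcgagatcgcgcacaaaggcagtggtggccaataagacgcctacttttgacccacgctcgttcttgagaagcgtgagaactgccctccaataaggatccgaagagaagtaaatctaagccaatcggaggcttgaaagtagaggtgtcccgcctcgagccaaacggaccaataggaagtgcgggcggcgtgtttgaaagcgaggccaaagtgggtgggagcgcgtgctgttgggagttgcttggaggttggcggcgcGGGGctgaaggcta
OR10J1 (chr1:159439472-159439771, plus strand), an olfactory receptor gene, and CRNN (chr1:152414214-152414513, minus strand), which encodes the epidermal protein cornulin, had no boundary peak.
OR10J1: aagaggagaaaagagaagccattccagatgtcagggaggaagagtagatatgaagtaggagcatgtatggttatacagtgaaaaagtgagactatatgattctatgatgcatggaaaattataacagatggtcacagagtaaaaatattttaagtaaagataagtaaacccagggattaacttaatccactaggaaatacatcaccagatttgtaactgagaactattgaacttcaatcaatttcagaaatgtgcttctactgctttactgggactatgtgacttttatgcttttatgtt
CRNN: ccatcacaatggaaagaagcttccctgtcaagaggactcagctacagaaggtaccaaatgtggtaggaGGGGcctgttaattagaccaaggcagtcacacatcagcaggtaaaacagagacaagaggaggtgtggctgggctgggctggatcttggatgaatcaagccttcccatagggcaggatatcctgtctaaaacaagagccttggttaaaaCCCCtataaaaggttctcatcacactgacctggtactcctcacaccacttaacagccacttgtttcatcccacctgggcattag
Each of the 7 promoters with a peak lay wholly inside that peak. CLIC4 had the highest GC content of the set, 74.7%, and 36 CpG dinucleotides, while RBM15 had 52.7% and 15. OR10J1 had 34% GC, CRNN had 48.7%, and neither held a CpG. GGGG was present in 80.6% and CCCC in 79.7% of the 15812 promoters of chromosomes 1 to 22 and X, so these runs are common letters and not a mark of the genes shown. The motif TATAAA, read on both strands, was in 9.75% of them and, among the promoters printed, in CRNN. A match describes these letters and not a binding site.

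The arms differed little in peaks per length and more in peaks per gene. The p arm held 11.6 peaks per Mb (exact Poisson interval 11.0 to 12.2) and the q arm 12.2 (11.6 to 12.8), a ratio of 0.947 with an interval of 0.880 to 1.02. The q arm includes 1 span of 18.0 Mb, from 125183246 to 143184640, with neither a listed gene nor a peak. Without it the q arm held 14.2 peaks per Mb, and the ratio was 0.811 (0.754 to 0.873). The p arm is the denser in protein-coding genes, with 1076 genes or 8.75 per Mb against 973 genes or 7.73 per Mb. Peaks per protein-coding gene were thus 1.32 in the p arm and 1.58 in the q arm, a ratio of 0.836 (0.777 to 0.899).

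The share of genes with a peak at their boundary also differed. Of the p arm's protein-coding genes 316 of 1076, or 29.4% (Wilson interval 26.7 to 32.2), had a boundary peak, against 358 of 973, or 36.8% (33.8 to 39.9), in the q arm. Both lie below the background of 40.3%. The difference was -7.43 percentage points, with a Newcombe interval of -11.5 to -3.35. For lncRNA genes, which make RNA without a coding frame, the shares were 14.8% of 850 in the p arm and 18.4% of 738 in the q arm, beside a background of 18.3%, and the interval of the difference (-7.31 to 0.0574 points) spans 0.

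The p arm had a stretch with few peaks for its genes. From 50 to 110 Mb, limits chosen after the values were seen, 302 protein-coding genes had 50 boundary-peak genes among them, or 16.6% (12.8 to 21.2), and there were 0.772 peaks per gene. Without it, the difference between the arms in boundary-peak genes was -2.43 points (-6.91 to 2.10) and the ratio of peaks per gene was 0.972 (0.900 to 1.05), and both intervals then include no difference. Since the stretch was picked for its low values, leaving it out of the p arm had to narrow the difference. With 165 to 200 Mb of the q arm left out as well, a stretch of similar gene density, the values were -3.13 points (-7.85 to 1.61) and 0.956 (0.882 to 1.03). The first window of the p arm pulled the other way: without 0 to 5 Mb the ratio of peaks per gene was 0.738 (0.683 to 0.797).

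Peak height and width were much alike in the arms. The median width was 671 bp in the p arm and 676 bp in the q arm, and the median total signal 971 and 986. Maxima of 5 or more were reached by 120 p arm peaks (8.44%) and 157 q arm peaks (10.2%), a difference of -1.77 points with an interval of -3.87 to 0.337. Maxima of 10 or more were reached by 15 and 22 peaks.

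**Figure D1:**
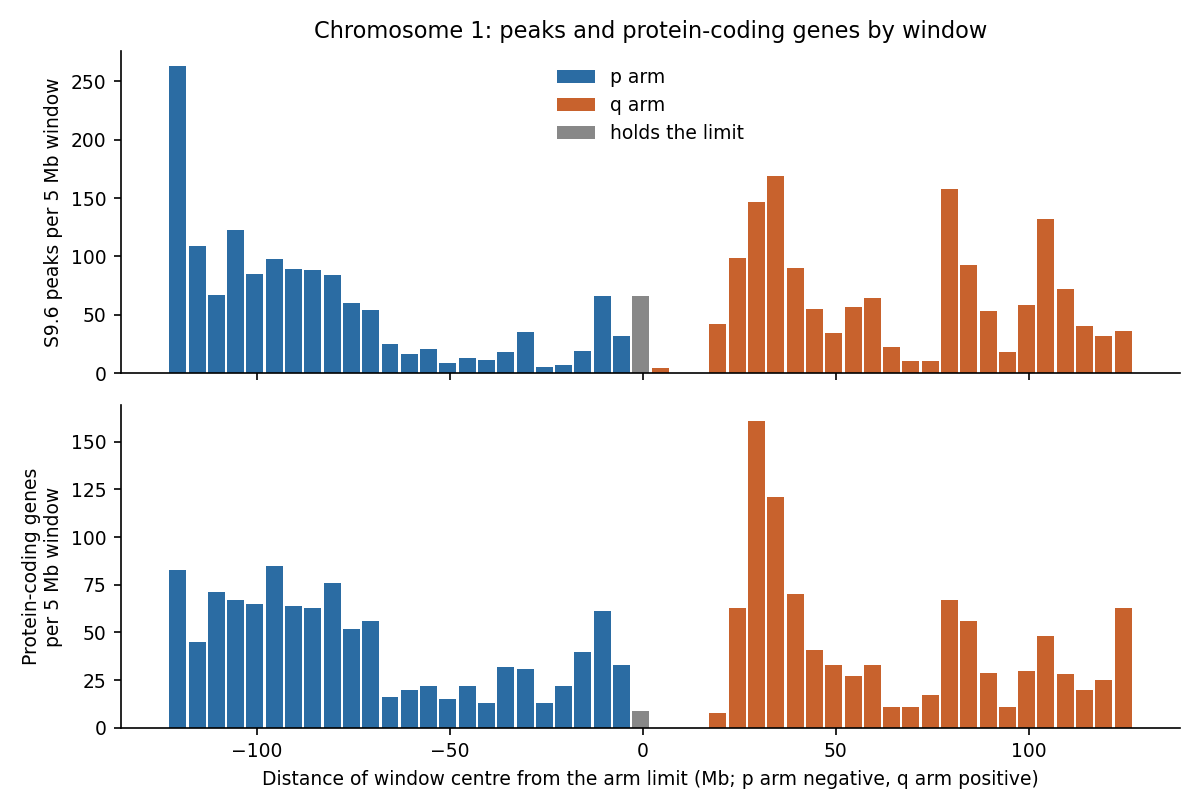
Number of S9.6 peaks (upper panel) and of protein-coding genes (lower panel) in each 5 Mb window of chromosome 1, plotted by the distance of the window's centre from the arm limit in Mb. Both counts are high at the p end and again beyond the empty span of the q arm, where the 2 empty windows lie, while the first window holds 263 peaks and the window with most genes holds 161 genes and 147 peaks.

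Along the chromosome, peaks were many where genes were many. Across the 50 windows the Spearman correlation of peaks with protein-coding genes was 0.826 and Pearson's r 0.769. Spearman's rho was 0.881 over the 24 windows wholly in the p arm and 0.865 over the 25 wholly in the q arm. Over the 532 full windows of the other chromosomes with at least 1 peak it was 0.658. These sets are unlike, since the values for all 50 windows and for the q arm keep 2 windows without a peak and the partial last window. The 532 windows also pool chromosomes that differ in peaks per gene, from 0.809 on chromosome 6 to 4.89 on chromosome 22. Without windows of no protein-coding gene, rho on chromosome 1 was 0.790. Windows of a chromosome share 1 library and adjoin each other, so these values describe the map and carry no p. Summits, the middles of the region of highest coverage, gave a rho of 0.914 with gene number when they lay at gene boundaries, 0.856 inside genes and 0.624 between genes. The 10 windows with most peaks held 47.0% of the peaks, and the 10 windows with most genes held 42.3% of the genes.

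For a given number of genes, chromosome 1 had fewer peaks than the other chromosomes. A straight line through their windows rose by 2.01 peaks per protein-coding gene from 11.4 peaks at 0 genes, and the line through chromosome 1 rose by 1.28 from 8.0 over its 47 full windows with a peak. Of the 50 windows 7 lay above the line of the other chromosomes. The count was less than the line divided by 1.5 in 35 windows, 21 of the 24 in the p arm and 14 of the 25 in the q arm, and more than 1.5 times the line in 2. The 14 include the 2 windows without a peak, the window from 125 to 130 Mb without a gene, and the partial last window. The line itself was fitted to full windows with at least 1 peak.

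**Figure D2:**
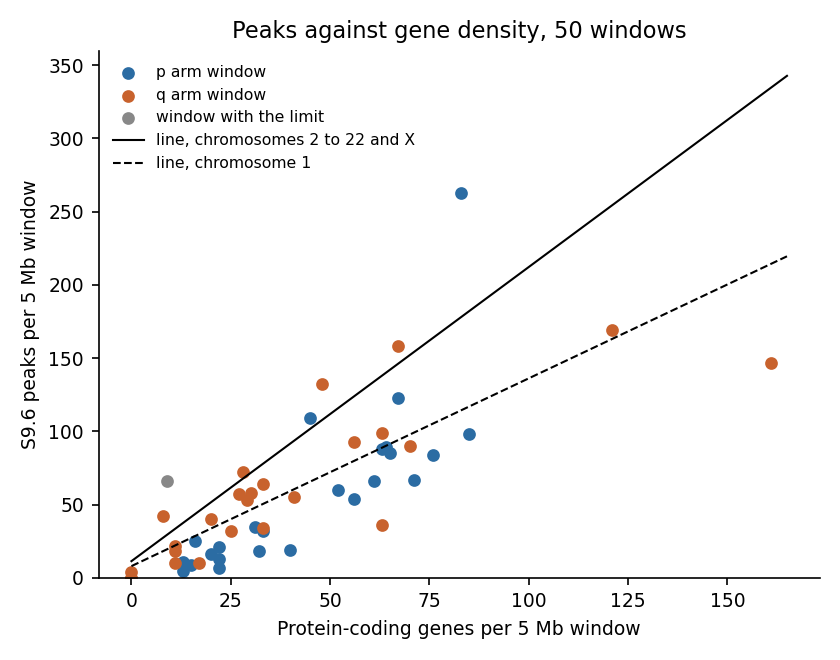
Peaks against protein-coding genes in the 50 windows of chromosome 1, by arm. The solid line was fitted to 532 windows of chromosomes 2 to 22 and X and the dashed line to 47 windows of chromosome 1, and 7 of the 50 windows lie above the solid line.

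The richest window was the first. It held 263 peaks and 83 protein-coding genes, where the line gives 178. Peaks there lay mainly inside genes (62.7% of summits), and 38 of the 83 genes (45.8%) had a boundary peak. TMEM52, which encodes a membrane protein, had the highest of these, with a maximum of 10. C1orf174 followed with 7 and C1orf159 with 6. The next windows by peak number were 155 to 160 Mb, with 169 peaks and 121 genes, and 200 to 205 Mb, with 158 peaks and 67 genes. In the former the highest boundary peak, with a maximum of 9, was shared by ASH1L, a histone methyltransferase gene, and MSTO1, a gene of mitochondrial fusion. In the latter BTG2, an antiproliferative gene induced by p53, and DDX59, an RNA helicase gene, each reached 7.

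The 3 windows with fewest peaks among those with a gene all lay in the p arm between 70 and 105 Mb. The window from 95 to 100 Mb held 5 peaks and 13 genes, of which PTBP2, a splicing regulator, was the gene with a boundary peak (maximum 2). The window from 100 to 105 Mb held 7 peaks and 22 genes, 4 of them with a boundary peak, among them EXTL2 and SLC30A7, which share 1 peak with a maximum of 3. From 70 to 75 Mb there were 9 peaks and 15 genes, and no gene had a boundary peak. Stretches of at least 1 Mb without a peak numbered 11 in the p arm, 17.5 Mb in all, and 3 in the q arm, 22.6 Mb in all including the 18.0 Mb span. The median spacing between peaks was 30.5 kb in the p arm and 24.8 kb in the q arm.

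Gene-dense windows could fall far below the line. The window from 150 to 155 Mb, the densest in genes, held 161 genes and 147 peaks where the line gives 335. It holds the 62 listed genes of the epidermal differentiation complex, 16 of them with a boundary peak, yet also ZNF687 (maximum 15) and the pair of CKS1B and SHC1 (13), and 67 of its 161 genes had a boundary peak. The last window, 245 to 250 Mb, held 63 genes, 43 of them olfactory receptor genes of which 1 had a boundary peak, and 36 peaks where the line gives 138. ZNF672 had its highest boundary peak among protein-coding genes, with a maximum of 9, and CNST and PGBD2 reached 6. The window from 10 to 15 Mb held 71 genes and 67 peaks where the line gives 154. Of these genes 26 belong to the PRAMEF and HNRNPCL clusters and had no boundary peak, while KIF1B, a kinesin gene, reached 8 and TARDBP, the gene of the RNA-binding protein TDP-43, reached 6.

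The arms were also compared within windows of similar gene number. The p arm windows with 20 to 39 genes lay in the low stretch from 50 to 110 Mb, except 115 to 120 Mb. Those with fewer than 20 lay there too, except the part of 120 to 125 Mb before the limit. Those with 40 to 59 included 50 to 55 and 105 to 110 Mb. These comparisons are thus not independent of that stretch, which was picked for its low values. In windows with 20 to 39 protein-coding genes, 32 of 182 p arm genes (17.6%, 12.7 to 23.8) and 72 of 225 q arm genes (32%, 26.3 to 38.4) had a boundary peak. The peaks per gene in those windows were 0.780 (0.657 to 0.920) and 1.82 (1.65 to 2.01). In windows with 40 to 59 genes the shares were 29.5% (23.5 to 36.3) and 41.4% (33.7 to 49.5), and the peaks per gene 1.25 (1.10 to 1.42) and 1.93 (1.71 to 2.17). With 60 or more they were 34.3% (30.7 to 38.1) of 635 genes and 39.1% (35.1 to 43.2) of 545, and peaks per gene ran the other way, 1.52 (1.42 to 1.62) in the p arm and 1.28 (1.19 to 1.38) in the q arm. That p arm value includes the 0 to 5 Mb window, with 263 peaks at 83 genes, or 3.17 per gene. The next highest p arm window of the class, 15 to 20 Mb, had 1.84. The class without the 0 to 5 Mb window was not computed. Windows with fewer than 20 genes had 9 of 66 p arm and 13 of 58 q arm genes with a boundary peak, shares of 13.6% and 22.4% whose intervals overlap, and 1.12 (0.880 to 1.41) and 2.55 (2.16 to 3.0) peaks per gene. The q arm value of 2.55 rests on 148 peaks. Among them are the 88 from the arm limit to 145 Mb, a stretch with 8 protein-coding genes where 90.9% of summits lay between genes.

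Taken as larger stretches, with limits set after the values were seen, the p arm was dense at its start, sparse in its middle and denser again before the centromere. The first 50 Mb held 1066 peaks, 21.3 per Mb, and 35.6% of its 671 genes had a boundary peak. The 50 to 110 Mb stretch held 233 peaks, 3.88 per Mb, and the last 13 Mb of the arm held 122, or 9.38 per Mb. In the q arm, 145 to 165 Mb was the densest of the stretches with 505 peaks, 25.2 per Mb, and 415 genes of which 41.4% had a boundary peak. From 165 to 200 Mb there were 252 peaks, 7.20 per Mb, yet 33.5% of the 173 genes there had a boundary peak, about the share from 200 Mb to the end (33.4% of 377). The 50 to 110 Mb and 165 to 200 Mb stretches had nearly the same gene density, 5.03 and 4.94 per Mb, and their shares of boundary-peak genes were 16.6% (12.8 to 21.2) and 33.5% (26.9 to 40.9), intervals that do not overlap.

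Around the centromere peaks were not tied to genes. The window from 120 to 125 Mb held 66 peaks and 9 genes, 2.24 times the line, and 59 of the 66 summits lay between genes. Within 5 Mb after the arm limit there were 46 peaks, all between 123101093 and 125183245 and all between genes, against 31 in the 5 Mb before it, of which 20 lay between genes. The tallest of the 46, at chr1:125178829-125180827, had a maximum of 31 and a total signal of 26436, and another at chr1:125182075-125183245 reached 17. On the far side of the empty span the first 2 Mb held 48 peaks, of which 18 (37.5%) had a maximum of 5 or more, and 35 lay between genes. From the arm limit to 145 Mb, 90.9% of 88 peaks lay between genes and 26.1% had a maximum of 5 or more, beside 8 protein-coding genes. Sequence near the centromere recurs in many copies, and in the sources used here the placement of multiply mapping reads is not given.

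The ends of the chromosome carried the tallest peak of each arm. The first peak, at chr1:9998-10467, had a maximum of 52, and the last, at chr1:248945675-248946434, had 79 and a total signal of 28129. Both lie close to the ends of the chromosome, where telomeric repeats are found.

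Where peaks lay relative to genes differed modestly between the arms. Summits at a boundary of protein-coding or lncRNA genes made up 23.6% in the p arm and 24.5% in the q arm, with a difference whose interval spans 0 (-4.03 to 2.13 points). Summits inside genes were 51.2% and 45.0%, 6.14 points more in the p arm (2.53 to 9.72), and summits between genes 25.3% and 30.4%, a difference of -5.19 points (-8.40 to -1.95). The q arm shares include the 88 peaks from the arm limit to 145 Mb, with 90.9% of summits between genes and 6.82% inside. These differences were not computed without that stretch, so they need not hold along the whole arm.

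The share of peaks at a gene boundary rose with height up to a maximum of 5 to 9 in the p arm and up to 4 in the q arm. In the p arm it was 13.8% for maxima of 1 to 2, 26.9% for 3, 39.3% for 4, 68.6% (59.2 to 76.7) for 5 to 9 and 53.3% (30.1 to 75.2) for 10 or more. In the q arm it was 15.1%, 27.2%, 49.3%, 47.4% (39.2 to 55.8) and 36.4% (19.7 to 57.0). Of the q arm peaks with a maximum of 5 to 9, 31.9% lay between genes, against 12.4% in the p arm, and of its 22 peaks of 10 or more 54.5% did, against 20% of the p arm's 15. Among these 22 are the peaks flanking the empty span and a tRNA cluster described below, since tRNA genes were not counted as gene boundaries for summits.

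Peaks lay at gene starts more often than at gene ends. Strand was known for the genes with a listed start, 1747 of the 2049 protein-coding genes. A peak within 1000 bp of any listed start was found for 260 of 914 p arm genes (28.4%) and 268 of 833 q arm genes (32.2%), beside a background of 38.4%, a difference of -3.73 points with an interval that spans 0 (-8.03 to 0.583). For the 1276 of these genes that are 10 kb or longer, the 5′ end had a peak in 183 of 704 p arm genes (26%) and 198 of 572 q arm genes (34.6%), a difference of -8.62 points (-13.7 to -3.56). The 3′ end had one in 44 (6.25%) and 49 (8.57%). Both ends had one in 17 and 23 genes.

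**Figure D3:**
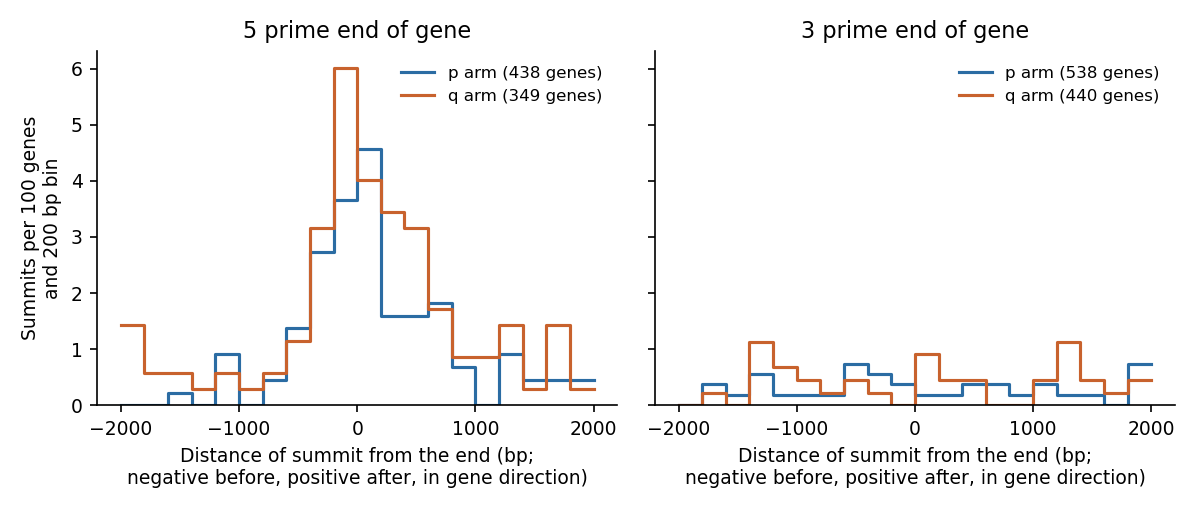
Summits per 100 genes in 200 bp bins around the 5′ end (left) and 3′ end (right) of protein-coding genes of 10 kb or more with no other gene end within 2000 bp, by arm, with distance in bp in the direction of the gene. Summits pile up within 500 bp of the 5′ end, 63 of 96 in the p arm and 65 of 112 in the q arm, while the 3′ ends show no such pile.

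Around isolated starts the summits lay on both sides. In the p arm 96 summits lay within 2000 bp of the starts of 438 such genes, 57.3% of them (47.3 to 66.7) downstream, with a median distance of 56 bp into the gene. In the q arm there were 112 at 349 genes, 54.5% (45.2 to 63.4) downstream, at a median of 73 bp. Both intervals include equal shares. At isolated 3′ ends 33 summits lay near 538 p arm genes and 35 near 440 q arm genes, and 9 and 8 of them were within 500 bp.

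Promoters with a peak were richer in GC and CpG than those without, in both arms. One start per gene, the one nearest the 5′ end of its span, was used here. In the p arm the median GC content was 67.3% for the 247 promoters with a peak and 62.7% for the 667 without. In the q arm it was 63.3% for 258 and 55% for 575. The ratio of observed to expected CpG was 0.835 with a peak in either arm, against 0.725 without one in the p arm and 0.390 in the q arm. TATAAA, the core of the TATA box, was in 4.86% of p arm promoters with a peak and 7.95% without, and in 6.20% and 18.4% in the q arm. GC skew, the excess of G over C on the gene's strand as a percentage of both, had medians of 1.87 with and 2.3 without a peak in the p arm and of 0 and 0.448 in the q arm.

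The p arm's promoters were the richer in GC (median 64.3% against 58.7%) although fewer had a peak. The promoters of chromosome 1 were divided by GC content into 4 classes of equal size, and in each of them the share with a peak was higher in the q arm. In the lowest class, up to 52.7% GC, it was 8.82% (5.42 to 14.0) in the p arm and 12.3% (8.92 to 16.7) in the q arm. In the second it was 22.8% and 32.3%, in the third 35.7% and 44.3%, and in the highest, from 69.3% GC, 33.1% (27.9 to 38.8) of 284 and 47.7% (39.95 to 55.6) of 153. The intervals of the arms do not overlap in the highest class and overlap in the other classes.

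**Figure D4:**
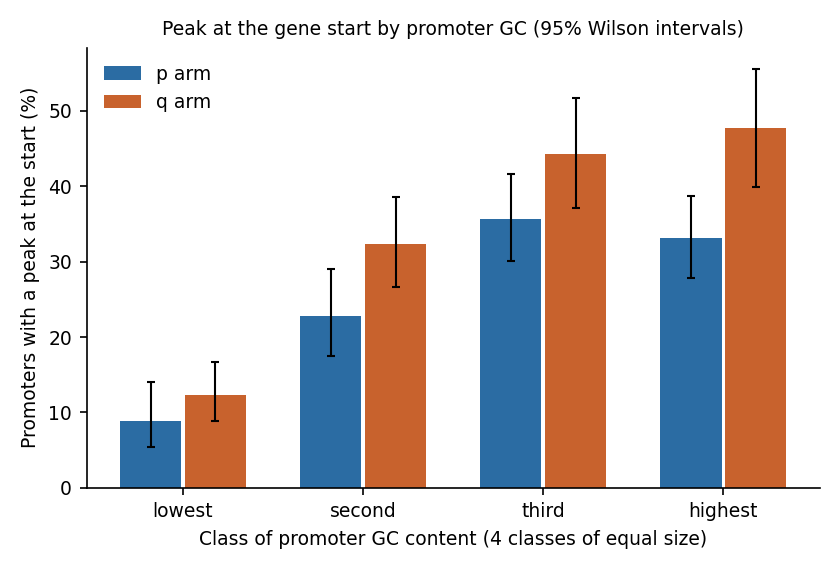
Share of promoters with a peak within 1000 bp of the start, by class of promoter GC content (4 classes of equal size over chromosome 1) and by arm, with 95% Wilson intervals as error bars. The share rises from 8.82% in the lowest p arm class to 35.7% in the third, and from 12.3% to 47.7% across the q arm.

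The gene-boundary peaks of highest coverage in the p arm began with 1 peak at chr1:121184330-121185364, 1035 bp wide with a maximum of 20, which covers the end of FAM72B's span and the start of SRGAP2C. RBM15 had a peak of 12 over its start, shared with its antisense gene RBM15-AS1. CLIC4 had 11. Peaks of 10 lay at ENO1, the gene of the glycolytic enzyme enolase, at CTNNBIP1, an inhibitor of beta-catenin, at CAMTA1, a transcription activator gene, and over the overlapping starts of AP4B1 and DCLRE1B, a gene of telomere and crosslink repair. Among the 10 tallest p arm peaks, 4 lay inside genes and away from any boundary. Their maxima were 32 in SERINC2, a membrane protein gene, 26 in HFM1, a meiotic helicase gene, 18 in CAMTA1 and 13 in THRAP3, a splicing and transcription factor gene.

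In the q arm, ZNF687 and SRGAP2 had boundary peaks of 15, and the shared start region of SHC1, an adaptor of growth factor receptors, and CKS1B had 13. FAM72C had 12. Peaks of 10 lay at GUK1, a guanylate kinase gene, at NUCKS1, a nuclear phosphoprotein gene, and at the shared region of FAM72D and SRGAP2B. Except for CKS1B and SHC1, whose promoters had 57% and 55% GC, and NUCKS1 with 57%, the protein-coding q arm genes named here with a listed promoter had at least 58.7% GC.

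The SRGAP2 and FAM72 copies recurred among these peaks on both arms. SRGAP2 and its partial copies SRGAP2B, SRGAP2C and SRGAP2D, each next to a FAM72 gene, lay under peaks with maxima of 15, 10, 20 and 12. Their total signals were close, 7178, 6470, 6883 and 7181. In alignments without internal gaps, the listed promoters of SRGAP2B and SRGAP2 were identical over all 252 bases that they share. SRGAP2C matched SRGAP2B at 275 of 283 shared bases (97.2%) and SRGAP2 at 248 of 269 (92.2%). The SRGAP2C promoter has a short additional stretch near its end that SRGAP2 and SRGAP2B lack. Without gaps, shifted bases after it count as mismatches, so both percentages understate the similarity of SRGAP2C to the other copies. With copies this similar a read may have been placed on any of them, so the peaks cannot be assigned to 1 copy with certainty and the 4 are not 4 separate observations.

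Some genes carried many peaks along their span and little at their boundaries. PRDM16, a regulator of brown fat and blood stem cells, had 19 peaks over 369 kb and no boundary peak. TTC34 had 18 over 165 kb and MEGF6 15 over 137 kb, with boundary maxima of 2. All 3 lie in the first 5 Mb. In the q arm NAV1, a neuron navigator gene, had 12 over 288 kb, and LMNA, which encodes the nuclear lamins A and C, 9 over 57.5 kb. KAZN, a gene of 1225 kb, had 12, or 0.979 per 100 kb. Of the protein-coding genes of 300 kb or more, 23 of 27 in the p arm and 27 of 31 in the q arm had a peak over their span, and 4 and 6 had one at a boundary.

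**Figure D5:**
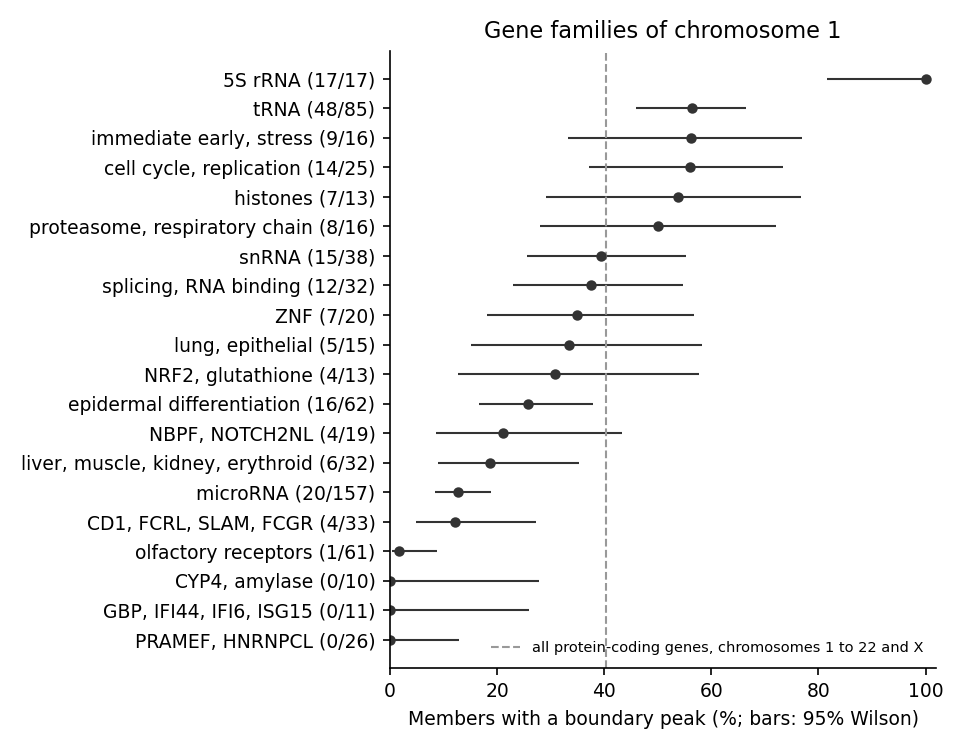
Share of members with a boundary peak in each gene family of chromosome 1 with at least 10 members, with 95% Wilson intervals and the counts in brackets. The dashed line marks the 40.3% of all protein-coding genes, and families run from 17 of 17 5S rRNA genes to 0 of 26 PRAMEF and HNRNPCL genes.

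Short RNA genes made by RNA polymerase III are given beside the share of their own class. All 17 listed 5S rRNA genes, in 1 tandem cluster on the q arm, had a boundary peak, beside a background of 100% over 29 rRNA genes. They shared 20 peaks between 228609841 and 228647392 with maxima of 2 to 6 and a median of 4, and these were 20 of the 132 peaks of the window from 225 to 230 Mb. Of 85 tRNA genes 48 had a boundary peak (56.5%, 45.9 to 66.5), beside a background of 45% over tRNA genes. They were 43 of 70 in the q arm and 5 of 15 in the p arm. In the window from 160 to 165 Mb, 24 of 32 tRNA genes had one, through 15 peaks with maxima of 2 to 13. The tallest, at chr1:161467147-161469896, 2750 bp wide, touched TRE-CTC1-5, TRG-TCC2-5 and TRD-GTC2-5, genes of glutamate, glycine and aspartate tRNAs. From 145 to 150 Mb it was 10 of 22 genes, through 10 peaks of 2 to 5. Copies within both families are nearly identical, so reads may have been placed on any of them.

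Spliceosomal snRNA genes stood near their background, 15 of 38 (39.5%) against 38.9%. RNU1-1 and RNU1-2, copies of the U1 gene on the p arm, had maxima of 10 and 9. The replication-dependent histone genes of the q arm, transcribed in S phase, had a boundary peak in 7 of 13 (53.8%, 29.1 to 76.8, an interval that includes the 40.3% of all protein-coding genes), with maxima up to 4 at H2AC18, H2AC20 and H2AC21. Neighbouring histone genes share these peaks. Of 157 microRNA genes 20 (12.7%) had one, beside 18.2%. The highest, 13 at MIR4258, is the CKS1B and SHC1 peak. Of 4 snoRNA host genes, which are lncRNA genes, 3 had one (75%, 30.1 to 95.4, beside 18.3%), GAS5 (10) in the q arm and SNHG12 (4) and SNHG3 (3) in the p arm. The GAS5 peak also touches the protein-coding gene ZBTB37. The SNHG3 peak also touches RCC1, a protein-coding gene counted below among the cell cycle genes.

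Cell cycle, immediate early, proteasome and respiratory chain, RNA-binding and ZNF genes lay near or above the share of all genes, from 35% to 56.2%. Cytosolic ribosomal protein genes, given below, had a lower share. Cell cycle and replication genes had a boundary peak in 14 of 25, led by CKS1B (13), DTL (6), a gene of replication licensing control, and RAD54L (6), a recombination gene. Immediate early and stress genes had 9 of 16, with BTG2 (7), JUN (6) and PLK3 (6), and ATF3 and CCN1 without one. Proteasome, respiratory chain and related genes had 8 of 16, with ENO1 (10), NDUFS5 (4) and PSMA5 (4). Splicing and RNA-binding factors had 12 of 32, with RBM15 (12), DDX59 (7) and TARDBP (6), and numbered ZNF genes 7 of 20. The intervals of these 5 families include 40.3%. Their median promoter GC contents ran from 60.7% to 67.3%.

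Lung and epithelial genes had a boundary peak in 5 of 15 (33.3%, 15.2 to 58.3), beside the background of 40.3%, with EFNA1, an ephrin ligand gene, ELF3, an epithelial transcription factor gene, and SFN, which encodes 14-3-3 sigma, each at 5, and CLCA2 and CLDN19 without one. Targets of NRF2 and glutathione genes had 4 of 13 (30.8%, 12.7 to 57.6), with PRDX6 (5), PGD (4) and PRDX1 (4). Genes of liver, muscle, kidney and red cells had 6 of 32 (18.8%, 8.89 to 35.3), with LEPR (7), RHCE (7) and TNNT2 (5). The LEPR peak is shared with LEPROT and the RHCE peak with MACO1, neither of which is in the list. Of 5 cytosolic ribosomal protein genes 1 had one (20%, 3.62 to 62.4), RPS27 with a maximum of 4.

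Several families that are clustered or induced by specific signals were at the low end. Olfactory receptor genes had 1 of 61 (1.64%, 0.290 to 8.72), the 1 being OR14I1 with a maximum of 3. The PRAMEF and HNRNPCL genes had 0 of 26 (upper limit 12.9%), 11 interferon-induced genes, 7 guanylate-binding protein genes of 1 cluster with IFI44, IFI44L, IFI6 and ISG15 elsewhere on the p arm, 0 of 11 (upper limit 25.9%), and the CYP4 and amylase genes 0 of 10 (upper limit 27.8%). The CD1, FCRL, SLAM and FCGR immune genes had 4 of 33, all with maxima of 2, and AIM2, a sensor of DNA in the cytosol, was without one. Median promoter GC was 38.3% for olfactory receptors, 43.3% for PRAMEF and HNRNPCL genes and 41% for the interferon-induced genes. NBPF and NOTCH2NL genes, recent duplicates of high sequence similarity, had 4 of 19 (21.1%, 8.51 to 43.3), an interval that includes the background of 40.3%. Their median promoter GC was 63%.

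The epidermal differentiation complex, a q arm cluster of genes of the skin barrier, was uneven within itself. Of its S100A genes, which encode calcium-binding proteins, 10 of 16 (62.5%, 38.6 to 81.5) had a boundary peak, led by S100A13 and S100A2 with maxima of 6. None of 19 LCE genes, which encode late cornified envelope proteins, had one (upper limit 16.8%). Of 11 SPRR genes 3 did, and of the 16 others, FLG and CRNN among those without, 3. The median promoter GC was 59.5% for the S100A genes and 55.2% for the LCE genes. The division into these subsets was made after values for the complex were known.

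Set beside the other chromosomes, chromosome 1 had few peaks for its genes. It held 11.9 peaks per Mb against 15.4 on chromosomes 2 to 22 and X, a ratio of 0.772 (0.744 to 0.801), and 1.44 peaks per protein-coding gene against 2.41, a ratio of 0.599 (0.577 to 0.622). Ranked from the highest among 23 chromosomes, it was the seventh in protein-coding genes per Mb, the 16th in peaks per Mb and the 20th in peaks per gene. A boundary peak was found at 32.9% of its 2049 protein-coding genes against 41.2% elsewhere, a difference of -8.29 points (-10.4 to -6.10), and either arm alone was below 41.2%. Its summits were nonetheless more often at a gene boundary, 24.1% against 19.7%, a difference of 4.36 points (2.81 to 5.98). The share of peaks with a maximum of 5 or more, 9.36% against 9.55%, differed by -0.185 points (-1.22 to 0.952), an interval that spans 0. For a maximum of 3 or more the shares were 43.2% and 45.6%, a difference of -2.37 points (-4.21 to -0.515).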

How the data were processed

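CUT&Tag was run on A549 cells in 2 libraries, and the S9.6 peak list was analysed. The deposited values are a total signal and a maximum coverage per peak, whole numbers written by the authors' peak caller and read here as unscaled coverage. Per the submitters' processing notes, SEACR 1.3, deepTools 3.5.2, bedtools 2.30.0, SAMtools 1.9, Bowtie2 2.4.2, fastp 0.23.2 and the build GRCh38 (hg38) were used, with no roles named. The calling threshold, the use of IgG as control and the handling of duplicates are steps not given in the sources used here. Total reads are unknown, so no depth could be given.

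Gene spans and classes came from RefSeq (GRCh38.p14), 58419 genes on chromosomes 1 to 22 and X. A further 679 entries with coordinates of scaffolds or patches were left out. The table gives no exons. Promoter sequences were matched for 1747 of 2049 protein-coding genes of chromosome 1 by gene identifier. Peaks and genes were placed by their middles. Shares carry Wilson intervals, differences of shares Newcombe intervals, counts exact Poisson intervals and ratios exact conditional binomial intervals, computed in Python 3.11.15 with SciPy 1.17.1, pandas 2.3.3 and numpy 2.4.6. Promoters were aligned with Biopython 1.88 and figures drawn with matplotlib 3.10.9. The line through the windows is a least-squares fit over full windows with at least 1 peak. Code was tested on simulated data.

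Members and gene lists were chosen with earlier results of these data known. Named genes follow a rule: in each arm the 10 tallest peaks, the 10 protein-coding genes with the highest boundary peak and the 3 with most peaks; the 3 genes with the highest boundary peak in each named window; and in each list the 3 highest members and the first 2 without a peak. Not all are named, and 1 of them is not reported here. The SRGAP2 and FAM72 copies as a group, KAZN, LCE and SPRR genes were chosen after their values were seen. Alternatives covered peak height, boundary width, window size, the arm limit, the line and the stretches and genes included.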

Additional observations from a re-analysis of the deposited data

Results flagged for a closer look

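Signal lay in data that the comparisons leave out. The interval left out of chromosome 1, from 629072 to 634932, is a single peak of 5861 bp. Its coverage reached 1953 and summed to a total signal of 1907733, while the highest maximum among the 2958 peaks described is 79. It covers nuclear copies of mitochondrial genes, MTND1P23, MTND2P28, MTCO1P12, MTCO2P12, MTATP8P1, MTATP6P1 and MTCO3P12, and MIR12136. The peak list also holds 44 peaks on 11 alternate sequences named for chromosome 1, with a median maximum of 3 and a highest of 7, which belong to neither arm here.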

How the results depend on the processing

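Values were held as unmoved within the 95% interval of the reported value (0.1 for a correlation, 1.5 times for a count). Of 51 alternatives 41 were unmoved and 10 moved. Some of the 41 could hardly move. Keeping in the left-out interval adds 1 peak. Beginning the q arm beyond the empty span moves no protein-coding gene, and the difference in boundary-peak genes stayed at -7.43 points. The p to q ratio of peaks per Mb was 0.831 with the q arm begun beyond the empty span and 0.811 with empty spans left out of the length. Without peaks below a maximum of 3 the ratio was 0.886, with an interval of 0.793 to 0.991 that no longer includes 1. The ratio of peaks per gene was 0.738 without the 0 to 5 Mb window and 0.972 without 50 to 110 Mb, where the difference in boundary-peak genes was -2.43 points, and 0.956 and -3.13 points without 165 to 200 Mb as well. These exclusions were chosen after seeing the data. With the line fitted on chromosome 1, 7 windows lay above and 16 below the 1.5-fold limits, and with maxima of 3 or more 4 lay above. The difference in summits at a boundary, whose interval spans 0, changed sign to 1.06 points with maxima of 3 or more and 0.639 with the upper part of peaks by total signal. Every alternative listed at the outset was run. No paired analysis was possible because 1 library was analysed.

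Precision is limited by a median maximum of 2, by 1 library without replicate, by an unknown calling threshold, and by repeats and near-identical gene copies. The arm limit is a single position, and no expression values were used.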
